A study of Mus musculus with 6 samples.

Results

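The cytoplasmic ribosomal protein genes encode the protein part of the ribosome that translates nuclear mRNA. They were taken as all genes whose platform symbol is Rpl or Rps followed by a digit, or Rplp0, Rplp1, Rplp2 or Rpsa, with the Rps6k kinases and Rps19bp1 left out, and with each gene read from its brightest probe set by the mean of 6 arrays. This gave 49 of the 12393 genes measured, 23 of the small and 26 of the large subunit, from 101 probe sets. The arrays measured total RNA of mouse CD4+CD25+ cells separated with magnets, a fraction meant to hold regulatory T cells (Treg). In the knockout group (3 arrays), the label fl-DNMT1/Foxp3cre stands for a floxed allele of Dnmt1, the maintenance DNA methyltransferase, with Cre recombinase under Foxp3, the gene that defines Treg. The wild type group (3 arrays) carries no floxed allele or Cre in its labels, and C57BL6 is given as the strain of both groups. The deletion, the Cre and the floxed allele cannot be told apart as sources of a difference, the Cre acts only in cells that use Foxp3, and no source used here gives the ages of the mice. The samples are described as independent, but whether each is a separate animal is not said, so the p-values cover no more than the spread among these samples, which may be technical.

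Ribosomal proteins are made in matched amounts, and each subunit is assembled in the nucleolus around ribosomal RNA. Their mRNAs carry a 5′ terminal oligopyrimidine (TOP) tract, a stretch of C and T in the DNA that opens the transcript and through which mTORC1 signalling controls their translation. The transcript levels of these genes are high in nearly every cell and follow growth and Myc activity in T cells. Several proteins also act outside the ribosome, as Rpl5 and Rpl11 do when they bind Mdm2 and stabilise p53.

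The TOP tract is shown first, because it is the sequence feature for which these mRNAs are known. RefSeq promoter windows of GRCm38.p6, from 250 bases before to 50 after each annotated start, were found for 42 of the 49 genes. Below are the 15 bases on either side of the start for 4 genes with a run of C and T near the start and for the pair Rpl39 and Rpl39l, read 5′ to 3′ along the gene. Capitals mark unbroken runs of at least 5 C or T that open with C.
Rpl35: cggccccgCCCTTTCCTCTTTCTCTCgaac
Rps6: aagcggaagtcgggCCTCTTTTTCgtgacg
Rpl38: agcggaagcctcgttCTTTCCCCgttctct
Rplp2: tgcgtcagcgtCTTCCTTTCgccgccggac
Rpl39: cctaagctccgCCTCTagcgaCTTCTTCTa
Rpl39l: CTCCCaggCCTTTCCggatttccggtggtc
The windows lie as follows: Rpl35 at chr2:39005117-39005146 on the minus strand, Rps6 at chr4:86857353-86857382 on the minus strand, Rpl38 at chr11:114668565-114668594 on the plus strand, Rplp2 at chr7:141447636-141447665 on the plus strand, Rpl39 at chrX:37085208-37085237 on the minus strand, Rpl39l at chr16:10170213-10170242 on the plus strand. A run of at least 6 C or T opening with C lay within 25 bases of the start in 28 of the 42 genes (66.7%), against 38.5% of the 27025 genes with a window in the table. An unbroken run of at least 5 C or T, read from a C within 2 bases of the annotated start, was in 14 of the 42 (33.3%), against 10.6% of all. That C could lie inside a longer run that opened further upstream, as in Rpl35 and Rplp2, so this run need not open the transcript as a TOP tract does. The letters CCGGAAG on either strand, the core of the ETS family motif, were in the windows of 21 of the 42 (50%), against 9.93% of all. These letters hold a CpG, and the windows of the 42 had a median of 22.5 CpG sites, against 8 in all. The part of this in the excess was not tested. The E-box CACGTG, to which Myc can bind, was in 4 (9.52%), against 8.09% of all. A match in the letters shows no binding. The median knockout minus wild type difference on the log2 scale was -0.11 in the 28 genes with the run of 6 and -0.10 in the 14 without it. It was -0.08 in the 14 with the run at the start and -0.11 in the 28 without it, and -0.09 in the 21 with CCGGAAG and -0.10 in the 21 without.

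All values below are deposited log2 RMA levels, which are not comparable between probe sets, and differences are knockout minus wild type on the same log2 scale. Array medians lay between 5.70 and 5.77, and Pearson correlations across genes were 0.990 to 0.993 among the knockout arrays, 0.996 to 0.997 among those of wild type and 0.982 to 0.991 across the groups. Dnmt1 had 8.67, 8.89 and 9.34 on knockout arrays 1, 2 and 3, against 9.56, 9.43 and 9.50 on wild type arrays 1, 2 and 3 (limma adjusted p = 0.152). Foxp3 had 9.28, 8.82 and 8.43 in the knockout, against 9.47, 9.51 and 9.51 in wild type (limma adjusted p = 0.142). Neutrophil markers were higher in the knockout, where the mean of 17 markers was 7.61, 9.48 and 8.25 on arrays 1, 2 and 3, against 5.79 to 6.07 in wild type. The limma test called 10 of the 17 higher, against 1.33% of all genes. The mean of 15 core T cell genes was 10.83, 10.62 and 10.51 on knockout arrays 1, 2 and 3, against 10.66 to 10.75 on the wild type arrays. Of these 15 genes 13 had a negative difference, against 53.7% of all genes, with a median of -0.13. In this list 0 were called lower, and 3 were lower at an unadjusted p under 0.05, against 9.37% of all genes. Cd7, named after its value was seen, was called higher (difference 1.46, limma adjusted p = 0.0298). The mean of 11 erythroid genes was 5.19 to 5.68 in the knockout and 4.78 to 4.99 in wild type. Of the 11, 0 passed the limma threshold and 5 were higher at an unadjusted p under 0.05, against 8.56% of all genes.

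One member passed the test. The paralogue gene Rpl39l was 2.27-fold higher in the knockout, and 0 of the 49 members were lower at a limma adjusted p under 0.05 over all genes. Over all genes 1.33% were called higher and 0.573% lower, so 1 member higher and 0 lower is close to the background. At an unadjusted p under 0.05, 6 members were lower and 1 higher, where 9.37% and 8.56% of all genes were. Most differences were small and negative: 42 of the 49 members had a negative difference, against 53.7% of all genes. In 26 members all knockout arrays lay below all wild type arrays, against 14.0% of all genes, and in 1 member all lay above, against 11.0% of all genes. The median difference of the members was -0.10, with quartiles of -0.13 and -0.06, and that of all genes was -0.01 with quartiles of -0.12 and 0.10.

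**Figure D1:**
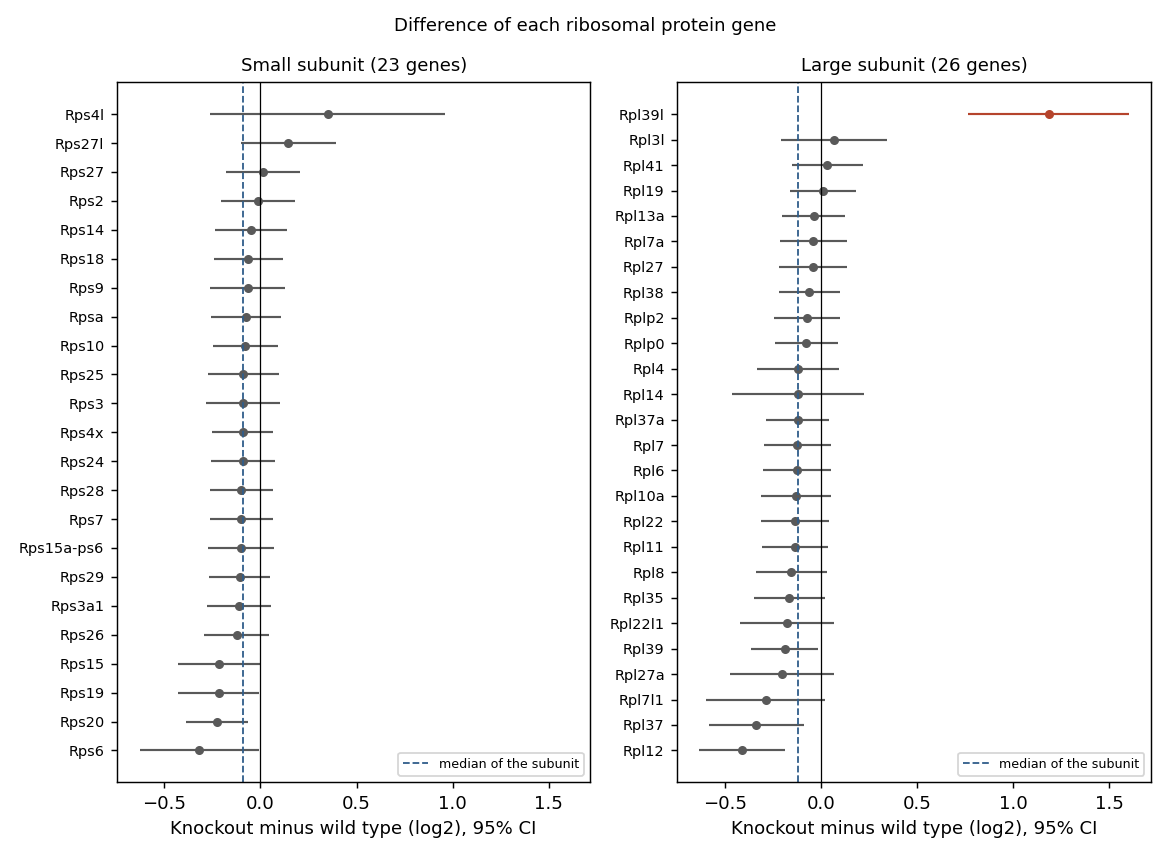
Difference of each member between the knockout and wild type groups on the log2 scale, with the 95% confidence interval of the limma fit, for the small subunit (23 genes, left) and the large subunit (26 genes, right). The dashed lines mark the subunit medians of -0.09 and -0.12, and Rpl39l, in red, is the member that passed the test.

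For most members the 95% interval was narrow beside a difference of 0.5, but not beside the members' median of -0.10. The median 95% interval reached 0.18 on either side of the difference, and for 43 of the 49 members the whole interval lay within 0.5 of 0. For 42 members the interval included 0. Of the 49 genes, 34 had a mean level of at least 12, near the top of the deposited range of 1.93 to 14.54, where a probe set may respond less than in proportion to its transcript. These 34 had a median difference of -0.10 and 32 of them were negative. The groups did not overlap in 20 of the 34, each with the knockout below, against 14.0% of all genes. To set them beside genes at a like level, a limit of 13 was chosen after the data were seen: 31 members at or above it had a median difference of -0.09 with 29 negative, while the 17 other genes there had a median of -0.02 with 11 negative. All 3 knockout arrays lay below the wild type arrays in 17 of the 31 members and in 3 of the 17 other genes.

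The median member lay below wild type on each knockout array, by unequal amounts. Relative to each member's wild type mean, the median member stood at -0.06, -0.14 and -0.10 on knockout arrays 1, 2 and 3, against -0.0017, -0.010 and 0.014 on wild type arrays 1, 2 and 3. Of the 49 members, 37, 44 and 41 were below their wild type mean on knockout arrays 1, 2 and 3, against 27, 27 and 18 on wild type arrays 1, 2 and 3. The median of the 17 other genes at or above a level of 13 stood at -0.05, 0.0017 and -0.0056 on knockout arrays 1, 2 and 3, so on array 1 other bright genes lay nearly as far below wild type as the members (-0.05 and -0.06). Knockout array 2 had the lowest value of the 6 arrays in 30 members (61.2%), against 24.2% of all genes. That array also had the highest neutrophil mean and knockout array 1 the lowest of the 3 knockout arrays, so the members ordered the knockout arrays opposite to the neutrophil markers. The means of the monocyte and macrophage (6.26, 6.40 and 6.34), B cell (7.38, 8.10 and 8.03) and CD8 and NK markers (7.65, 8.30 and 8.23 on knockout arrays 1, 2 and 3) had the same order as the neutrophil mean. The erythroid (5.31, 5.19 and 5.68), Treg (8.79, 8.48 and 8.20) and core T cell means had other orders. On wild type arrays 1, 2 and 3 the monocyte and macrophage mean was 5.56, 5.77 and 5.19. There the B cell mean was 7.40, 8.56 and 7.68, and the CD8 and NK mean 7.75, 7.80 and 7.62. The part of these markers, and of the T cell genes above, in the shift was not tested. Fewer cells of a type and less RNA per cell cannot be told apart in such bulk samples. Without knockout array 2 the median difference of the members was -0.08.

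**Figure D2:**
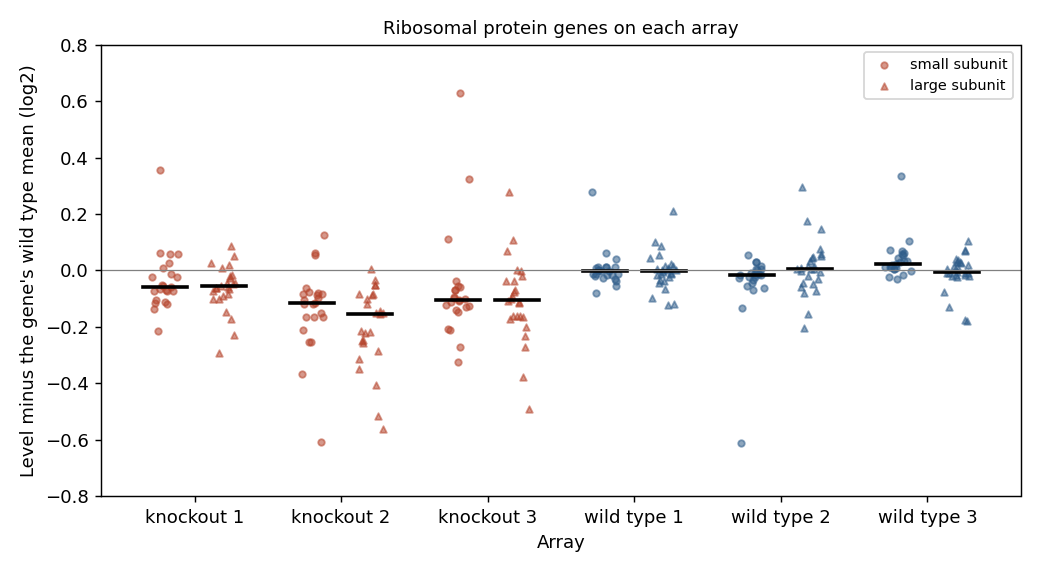
Level of each member on each array minus its mean on the wild type arrays, on the log2 scale, with circles for the small and triangles for the large subunit and a black bar at each median. The knockout arrays stand left of the wild type arrays, and 3 points beyond the axis limit of 0.8, those of Rpl39l on the knockout arrays, are not drawn.

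The subunits differed by no more than the arrays did among themselves. The median difference was -0.09 in the 23 small subunit genes, where 20 were negative, and -0.12 in the 26 large subunit genes, where 22 were negative. The knockout lay wholly below wild type in 12 of the 23 and in 14 of the 26, against 14.0% of all genes. Small minus large medians were -0.0012, 0.038 and 0.00063 on knockout arrays 1, 2 and 3, and 0.0017, -0.023 and 0.029 on wild type arrays 1, 2 and 3. The gaps of the knockout arrays thus overlapped those of the wild type arrays. The gap between the medians of the differences was 0.029, and it was -0.0032 without knockout array 2.

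Rpl39l encodes a paralogue of Rpl39, a small protein that lines the exit tunnel of the large subunit, and in mice it is known for its expression in male germ cells. Its levels were 6.96, 7.31 and 6.72 on knockout arrays 1, 2 and 3, against 5.69, 6.11 and 5.64 on wild type arrays 1, 2 and 3. The groups did not overlap, and each knockout value stood above the highest in wild type. The difference was 1.19 (SE 0.18, limma adjusted p = 0.0254). Its only probe set lies in the lower part of the members' range, where RMA compresses differences. The call was lost without wild type array 1 (difference 1.13, limma adjusted p = 0.116), 2 (1.33, adjusted p = 0.0576) or 3 (1.10, adjusted p = 0.130). The parent gene Rpl39 had 6.02, 6.08 and 5.92 in the knockout and 6.20, 6.21 and 6.18 in wild type. It thus lay below wild type on every knockout array, with a difference of -0.19 (SE 0.07) that did not pass (limma adjusted p = 0.252).

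Since Dnmt1 maintains methylation at CpG sites, the 250 bases before the start of both genes are printed with each CpG in capitals, from RefSeq, GRCm38.p6. Rpl39l lies on the plus strand at chr16:10169978-10170227 and Rpl39 on the minus strand at chrX:37085223-37085472.
Rpl39l: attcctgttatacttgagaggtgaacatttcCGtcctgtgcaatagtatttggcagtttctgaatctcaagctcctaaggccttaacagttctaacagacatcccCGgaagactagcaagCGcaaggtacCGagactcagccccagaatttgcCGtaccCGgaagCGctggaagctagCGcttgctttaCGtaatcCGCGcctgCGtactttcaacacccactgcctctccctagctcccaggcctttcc
Rpl39: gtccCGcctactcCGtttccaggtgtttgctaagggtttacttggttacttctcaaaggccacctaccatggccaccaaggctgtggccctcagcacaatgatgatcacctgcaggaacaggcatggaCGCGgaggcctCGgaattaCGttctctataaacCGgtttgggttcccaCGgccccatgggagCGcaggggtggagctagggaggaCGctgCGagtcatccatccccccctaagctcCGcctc
Each stretch held 12 CpG sites, and each 300-base window 17. The 42 genes with a window had a median of 22.5 CpG sites in it (3 to 39), against 8 in all genes with a window, counting the window with the most sites for genes with several. In CpG count both genes of the pair lay below the median of the family and above that of all genes. The letters CCGGAAG occur at 2 places in the printed stretch of Rpl39l and in none of that of Rpl39, whose 300-base window holds them after the start. Methylation itself was not measured on these arrays.

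No other paralogue passed the test. Rps27l, a paralogue of Rps27 and a known p53 target gene, had 10.50, 10.50 and 10.76 in the knockout and 10.50, 10.31 and 10.51 in wild type. The groups overlapped (difference 0.15, SE 0.11, limma adjusted p = 0.519). Rps27 itself had 7.41, 7.56 and 7.37 in the knockout, against 7.47, 7.37 and 7.45 in wild type, a difference of 0.01. Rpl22, which is needed for the development of αβ T cells in mice, had 12.26, 12.13 and 12.24 in the knockout and 12.31, 12.35 and 12.37 in wild type (difference -0.13, SE 0.08, limma adjusted p = 0.404). The knockout arrays were all below the wild type arrays. A second, dimmer probe set of Rpl22 had 8.11, 7.55 and 7.97 in the knockout and 8.25, 8.43 and 8.22 in wild type (difference -0.42, limma adjusted p = 0.208 over all probe sets), and averaging the probe sets gave -0.28. Its paralogue Rpl22l1 had 11.80, 11.46 and 11.54 in the knockout and 11.76, 11.72 and 11.85 in wild type (difference -0.17, SE 0.10, limma adjusted p = 0.436), with overlap through knockout array 1. Rpl7l1 had a difference of -0.29 (SE 0.13) and its parent Rpl7 one of -0.12 (SE 0.07), with limma adjusted p-values of 0.311 and 0.442. In both, all knockout arrays lay below wild type, for Rpl7l1 narrowly (8.18 on knockout array 1, 8.19 on wild type array 3). The other probe set of Rpl7l1, at a mean of 7.98 beside 8.18, had a difference of -0.0091 with overlapping groups. Averaging them gave -0.15, and the difference was -0.17 without knockout array 2 and -0.18 without wild type array 1. Rps4l, at 4.46 to 5.70 over the 6 arrays, and Rpl3l, the striated muscle paralogue of Rpl3, at 3.35 to 3.75, were dim, with differences of 0.35 (SE 0.26) and 0.07 (SE 0.12) and overlapping groups.

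**Figure D3:**
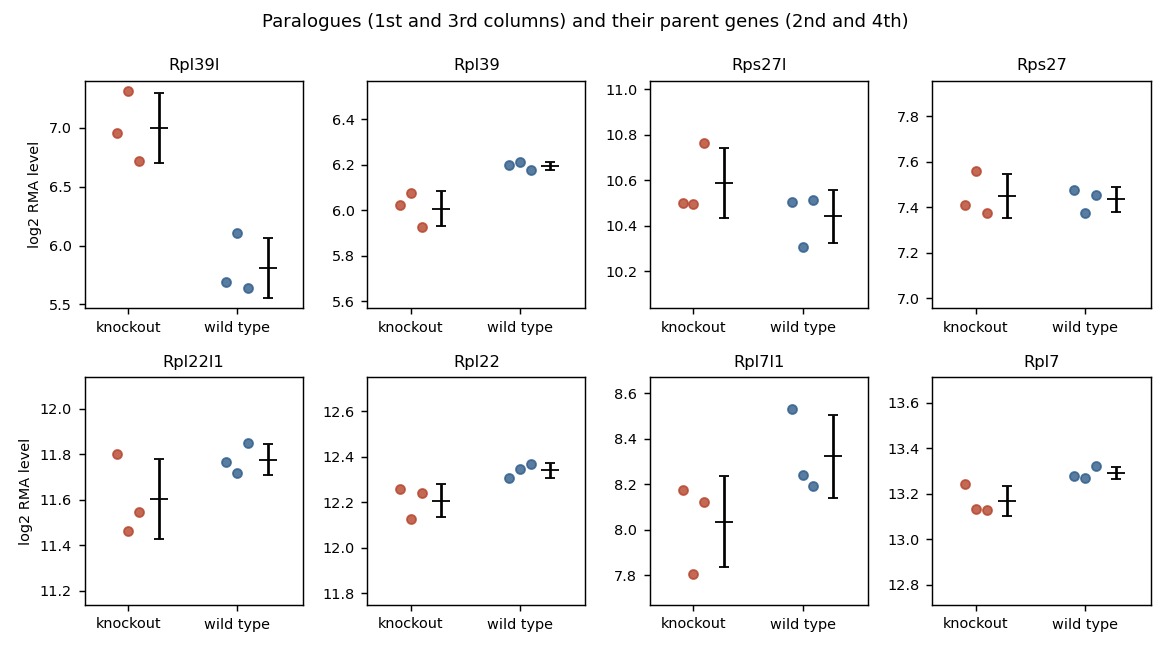
Log2 RMA levels of 4 paralogues and their parent genes, with a point for each array (knockout left, wild type right) and the mean ± SD of 3 arrays beside them; each panel has its own axis. The knockout points of Rpl39l lie above all wild type points, and those of Rpl39, Rpl22, Rpl7 and, narrowly, Rpl7l1 lie below theirs.

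Among the members of the small subunit, Rps6, the protein phosphorylated by S6 kinase, had the most negative difference over all 6 arrays. It had 9.18, 8.65 and 8.98 in the knockout and 9.22, 9.28 and 9.26 in wild type. All knockout values were lower, that of array 2 most (difference -0.32, SE 0.13, limma adjusted p = 0.272). Without knockout array 2 the difference was -0.17, less negative than those of Rps20 (-0.21) and Rps19 (-0.20). Rps20 had 13.35, 13.32 and 13.36 in the knockout and 13.57, 13.53 and 13.60 in wild type, so that the groups lay apart by more than the spread within either. Its difference was -0.23 (SE 0.07, limma adjusted p = 0.155). This probe set is of the kind whose name ends in _x_at, which may also bind related transcripts. The gene's other bright probe set, of the same kind, had a difference of -0.27, and without such probe sets a dim one at a mean of 3.75 stood for the gene, with a difference of 0.05. Rps19, the gene most often mutated in Diamond-Blackfan anaemia in people, had 13.40, 13.22 and 13.15 in the knockout and 13.48, 13.41 and 13.54 in wild type (difference -0.22, SE 0.09, limma adjusted p = 0.270). Rps15 had a difference of -0.21 (SE 0.09, limma adjusted p = 0.282), also without overlap. Rpsa, whose product is also known as the laminin receptor, had 13.70, 13.56 and 13.68 in the knockout and 13.69, 13.78 and 13.70 in wild type. There the groups overlapped (difference -0.08, SE 0.08, limma adjusted p = 0.660).

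In the large subunit, Rpl12, a protein at the base of the ribosomal stalk, had the most negative difference of all members over the 6 arrays. It had 6.82, 6.55 and 6.73 in the knockout and 7.01, 7.17 and 7.15 in wild type. Its groups did not overlap (difference -0.41, SE 0.10, limma adjusted p = 0.0871). Rpl37 had 9.25, 9.19 and 8.99 in the knockout and 9.57, 9.32 and 9.55 in wild type (difference -0.34, SE 0.11, limma adjusted p = 0.163). Rpl37 was the more negative of the pair without knockout array 2 (-0.36, against -0.33 for Rpl12) and without wild type array 2 (-0.41, against -0.38). Rpl27a had a difference of -0.20 (SE 0.11) with overlapping groups. Of the stalk proteins that recruit the elongation GTPases, Rplp0 had 13.71, 13.68 and 13.69 in the knockout and 13.78, 13.72 and 13.79 in wild type, and Rplp2 14.18, 14.07 and 14.20 against 14.24, 14.23 and 14.20. Their differences were both -0.07 (SE 0.07), with limma adjusted p-values of 0.623 and 0.655. Rpl11, the Mdm2 partner, had 12.86, 12.82 and 12.80 in the knockout and 13.02, 12.89 and 12.98 in wild type, without overlap (difference -0.13, SE 0.07, limma adjusted p = 0.394). Rpl19 and Rpl41 had differences of 0.01 and 0.03, whose sign was not stable across the alternatives. Rplp1 and Rpl5 had no probe set with a single symbol and are not analysed here. The pseudogene Rps15a-ps6 met the rule as well and was dim, at 2.70 to 2.91.

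Other probe sets of the same family gave a like shift. For 23 members there were 52 further probe sets, of which 44 had a negative and 8 a positive difference, with a median of -0.13 and 0 past the limma threshold over all probe sets. Of the 25 further probe sets with a mean level of at least 12, 24 were negative, with a median of -0.14. In 7 members some probe set had the opposite sign. The rule leaves out 102 probe sets that list a ribosomal protein gene together with other symbols, mostly pseudogenes. They name no gene here, but 99 of them had a negative difference, their median was -0.12 and the extremes were -0.45 and 0.40. The knockout arrays lay wholly below the wild type arrays in 54 of the 102 and wholly above in 1, against 14.0% and 11.0% of all genes. These are the same arrays as for the members and not other samples.

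Rps9, a small subunit protein, was an exception within a single gene. Its brightest probe set had 13.25, 13.02 and 13.09 in the knockout and 13.17, 13.19 and 13.20 in wild type, a difference of -0.07 with overlapping groups. Its second had 11.25, 7.04 and 7.32 on knockout arrays 1, 2 and 3, against 12.11, 11.998 and 11.96 on wild type arrays 1, 2 and 3. This probe set, singled out after its values were seen, was thus below wild type on every knockout array, and much further below on arrays 2 and 3 than on array 1 (difference -3.48, SE 0.98, limma adjusted p = 0.136 over all probe sets). The third, at 6.14, 6.38 and 6.24 in the knockout and 6.11, 6.17 and 6.23 in wild type, had a difference of 0.08. The transcript level of Rps9 thus cannot be read from the second probe set alone, and what it binds was not tested.

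**Figure D4:**
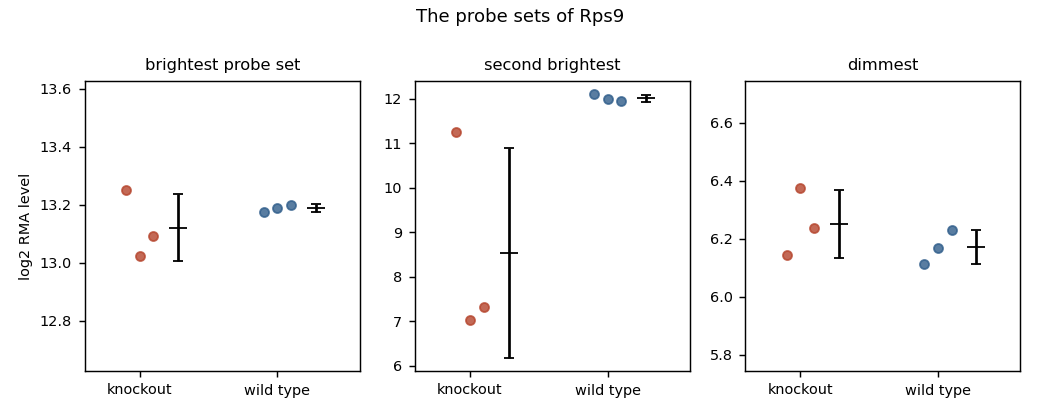
Log2 RMA levels of the 3 probe sets of Rps9, with a point for each array (knockout left, wild type right, arrays 1 to 3 from left to right) and the mean ± SD of 3 arrays; each panel has its own axis. In the second probe set 2 knockout arrays lie near 7 while the wild type arrays lie near 12.

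Lists of genes that make or serve the cytoplasmic ribosome had medians at least as negative. Beside them, 53.7% of all genes were negative, 0.573% were called lower and 1.33% called higher. At an unadjusted p under 0.05, 9.37% of all genes were lower and 8.56% higher. Of 49 ribosome biogenesis genes, which make and assemble ribosomal RNA and proteins in the nucleolus, 47 had a negative difference and the median was -0.16. At an unadjusted p under 0.05, 12 of the 49 were lower. In 21 the knockout lay wholly below wild type, against 14.0% of all genes. The 1 called lower was Noc2l, at 7.60, 7.50 and 7.56 in the knockout and 8.18, 7.91 and 8.18 in wild type (difference -0.54, SE 0.10, limma adjusted p = 0.0417). In 45 of the 49 (91.8%) the lowest of the 6 values was on knockout array 2, against 24.2% of all genes. That array had the highest neutrophil mean, and a link between these was not tested. All 13 measured genes of RNA polymerase I and its factors were negative, with a median of -0.14 and 0 past the limma threshold (2 at an unadjusted p under 0.05). The catalytic subunit gene Polr1a had 6.84, 6.64 and 6.92 in the knockout and 7.10, 7.17 and 7.17 in wild type (limma adjusted p = 0.115). Translation initiation factors had 29 of 30 members negative, a median of -0.11 and 0 past the limma threshold (4 lower at an unadjusted p under 0.05), with Eif4b at -0.25 and Eif5 at -0.19. Of 10 elongation and release factors 8 were negative (median -0.14), and the dim Gspt2, a paralogue of the release factor gene Gspt1, was called higher at 3.97, 4.05 and 4.07 in the knockout, against 3.33, 3.44 and 3.54 in wild type (limma adjusted p = 0.0223).

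Some of 20 other transcripts with a TOP tract are also in these lists. Of the 20, 19 were negative, against 53.7% of all genes, with a median of -0.13 and 0 past the limma threshold. At an unadjusted p under 0.05, 7 were lower and 1 higher, against 9.37% and 8.56% of all genes. The elongation factor gene Eef2 had 12.72, 12.63 and 12.74 in the knockout and 12.97, 12.97 and 12.97 in wild type (difference -0.27, SE 0.07, limma adjusted p = 0.115). The non-coding Gas5 had 11.43, 11.31 and 11.33 in the knockout and 11.61, 11.63 and 11.71 in wild type (difference -0.30, SE 0.08, limma adjusted p = 0.107). In both, the knockout arrays lay clear of the wild type arrays. The 74 mitochondrial ribosomal protein genes, whose products build a separate ribosome, had a median of -0.03 with 51 negative (68.9%, against 53.7% of all genes). Of them Mrps5 was called higher, where 1.33% of all genes were. It had 8.13, 7.92 and 7.99 in the knockout and 7.46, 7.50 and 7.62 in wild type (limma adjusted p = 0.0432). Whether the cytoplasmic and mitochondrial families differ was not tested.

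Of 23 genes of mTORC1 and S6 kinase signalling, 13 were negative (56.5%, against 53.7% of all genes), with a median of -0.07. The 2 called lower, where 0.573% of all genes were, both encode inhibitors of mTORC1. Sesn1 had 9.93, 9.68 and 9.73 in the knockout, against 10.33, 10.40 and 10.26 in wild type (difference -0.55, SE 0.09, limma adjusted p = 0.0337). Tsc1 had 7.07, 7.04 and 6.96 in the knockout, against 7.46, 7.39 and 7.39 in wild type (difference -0.39, SE 0.07, limma adjusted p = 0.0481). Of 10 genes of the Myc network 6 were negative (median -0.10), with differences from -0.83 to 0.21. At an unadjusted p under 0.05, 3 of the 10 were lower, against 9.37% of all genes. The Max partner Mxd4, an antagonist of Myc, was called lower at 8.54, 8.69 and 8.46 in the knockout and 9.18, 8.99 and 9.19 in wild type (limma adjusted p = 0.0387). Sesn1, Tsc1, Mxd4 and Mrps5 were read from the brightest of 3, 2, 4 and 2 probe sets. Over all genes 71 were called lower, but 3, 7 and 4 without wild type array 1, 2 or 3. The calls of these list genes were not followed there. Of 13 genes that sense faulty ribosomes or act with p53, 10 were negative (median -0.07) and 0 passed the limma test. At an unadjusted p under 0.05, 3 were lower and 2 higher, against 9.37% and 8.56% of all genes. The p53 target Cdkn1a had 6.58, 7.44 and 7.22 in the knockout and 6.34, 6.52 and 6.08 in wild type (limma adjusted p = 0.140). The nutrient-sensing kinase gene Eif2ak4 had 4.92, 5.26 and 5.38 in the knockout and 5.95, 5.78 and 5.68 in wild type (limma adjusted p = 0.0744).

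**Figure D5:**
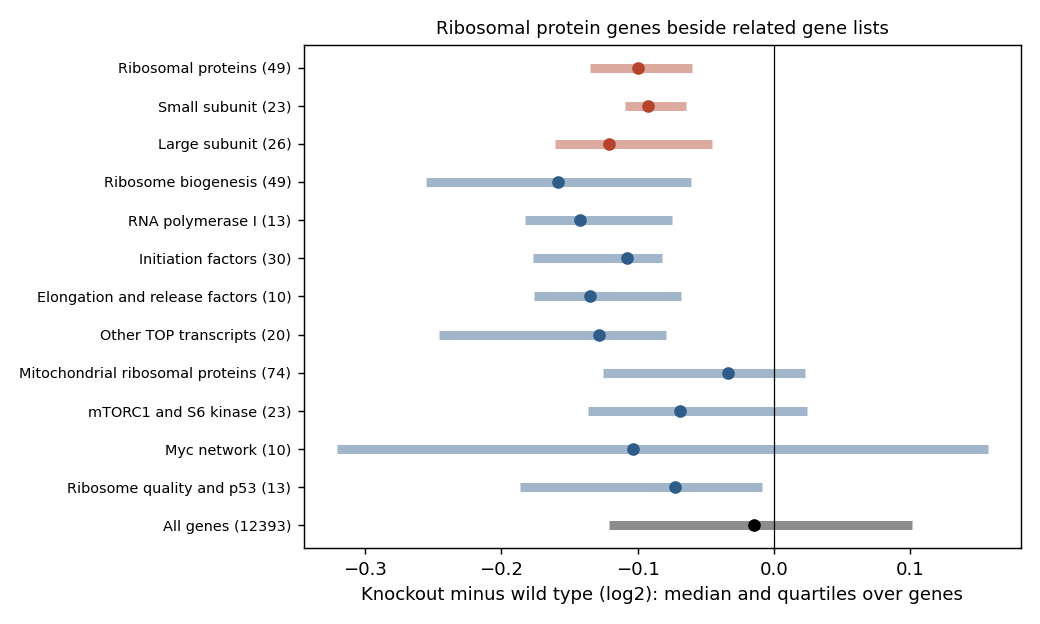
Median (points) and quartiles (bars) of the knockout minus wild type difference on the log2 scale over the genes of each list, with the number of measured genes in brackets. The ribosomal protein genes sit at -0.10 and the ribosome biogenesis genes at -0.16, while all genes centre at -0.01.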

How the data were processed

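The series has 6 one-colour arrays of biotin-labelled RNA, grouped by genotype and numbered by title. The authors deposited log2 expression values, which per the submitters' processing notes come from RMA, with no version or settings stated in the sources at hand. RMA normalises between arrays, so total RNA per cell is not measured. Of 22690 probe sets, 64 were controls, 20380 had 1 symbol in the platform annotation (the source of all names), 691 several and 1555 none.

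Knockout and wild type were compared with limma 3.58.1 (lmFit, eBayes) in R 4.3.3 on the brightest probe set of each of 12393 genes, with no filter, two-sided, with Benjamini-Hochberg adjustment over all genes and a threshold of 0.05. The script was tested on simulated data. The number of arrays limits the precision. Members and gene lists were chosen with earlier results of these data known. Named members were those called, up to 8 with the highest and the 8 with the lowest difference, a few with known extra roles, and paralogues with their parents. From other lists came called genes, up to 4 by lowest p, or else the pair with the lowest p. Rps9 was added after its values were seen, and Rps15a-ps6 completes the account of the rule. Markers of B cells (13 genes), CD8 and NK cells (19), monocytes and macrophages (18) and Treg (15) had median differences of 0.00, 0.52, 0.87 and -0.44. Of them 0, 3, 2 and 0 were called higher and 0, 2, 0 and 4 lower, against 1.33% and 0.573% of all genes.

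Alternatives were quantile normalisation, median centring, cyclic loess, leaving out the dimmest 40% of genes, averaging probe sets, leaving out _x_at probe sets, array weights, a variance trend with robust estimation, the replicate number as a block and leaving out each array. Figures used matplotlib 3.10.9 in Python 3.11.15.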

Additional observations from a re-analysis of the deposited data

How the results depend on the processing

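Under 15 alternatives, the count of ribosomal protein genes called higher was 1 except without wild type arrays 1, 2 or 3, where it was 0, so it ran from 0 to 1 with an array left out. The count called lower was 0 throughout. The median difference of the members ran from -0.13 with median centring to -0.07 with cyclic loess, and that of all genes was -0.05 and 0.0023 in these settings. The median of the small subunit genes moved to -0.13 with median centring. The gap between the subunit medians ran from -0.0032 to 0.049 with an array left out and changed sign without knockout array 2 (-0.0032). Signs of uncalled differences near 0 turned for Rpl19 with quantile normalisation (-0.0091) and median centring (-0.022), for Rps27 with median centring (-0.020) and array weights (-0.0066), for Rpl41 with averaged probe sets (-0.056) and without _x_at probe sets (-0.11), and for Rps20 without _x_at probe sets (0.046). With an array left out, differences crossed 0 for Rpl19 (-0.026 to 0.042), Rps27 (-0.041 to 0.050), Rpl41 (-0.0014 to 0.078) and Rpl3l (-0.034 to 0.14). With the exception of these and of Rpl39l without a wild type array, the named members kept their direction and their side of the threshold wherever an alternative gave a value. Without knockout array 2, uncalled differences moved by over 1.5 times for Rps15 (-0.14), Rpl22l1 (-0.10), Rpl27a (-0.13), Rplp2 (-0.03) and Rpsa (-0.03), beside Rps6 and Rpl7l1. Without wild type array 2 they were -0.11 for Rpl27a, 0.08 for Rps27l, 0.04 for Rps4l and -0.05 for Rpsa. The difference of Rps27l was lowest, at 0.06, without knockout array 3. The cause of the changes was not tested, other than fewer arrays or another probe set. With the replicate block the median difference was -0.10 and Rpl39l was still called (limma adjusted p = 0.0070), while all genes gave 112 higher and 35 lower calls, against 165 and 71 without it. These counts were 233 and 110 with array weights and 182 and 113 with a variance trend, and with an array left out they ran from 17 to 358 higher and from 3 to 186 lower. Equally numbered arrays correlated at -0.08, 0.15 and -0.04 in their deviations from the group means, and unequally numbered ones at -0.16 to 0.20. With 3 arrays per group this cannot settle whether the numbers pair the samples. The median 95% interval of a member reached 0.18 on either side of its difference.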
